A study of Homo sapiens with 6 samples.

Results

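The storage of fat in lipid droplets and its release from them were followed through 10 genes, G0S2, ANGPTL4, PLIN2, PLIN3, HILPDA, PNPLA2, PDK4, CPT1A, PPARD and FABP5, which code for droplet proteins, for regulators of lipases, for a nuclear receptor that senses fatty acids and for genes that respond to such receptors. All 10 were found by symbol among the 56303 genes of the deposited table. They were selected on measured values of the comparison described here, with the differences already known, so their values are a description and no test of them is read as support.

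Lipid droplets are stores of triglyceride and cholesteryl ester under a single layer of phospholipid, coated by perilipins. Adipose triglyceride lipase (ATGL, the product of PNPLA2) takes the first fatty acid off a triglyceride with the help of ABHD5, and the small proteins G0S2 and HILPDA bind ATGL and hold it back. Fatty acids, carried by binding proteins such as FABP5, activate the peroxisome proliferator-activated receptors (PPARs), which bind DNA together with RXR and turn on genes for storing and burning fat, among them PLIN2, ANGPTL4, CPT1A and PDK4, so that the pathway senses its own substrate.

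RNA sequencing was performed on T24, an established cell line derived from a bladder tumour. The cells were transfected for 48 h with a negative control siRNA (siNC, labelled wild type) or with siRNA against the F-box gene FBXL6 (siFBXL6, labelled as knockdown), with 3 samples in each group and 1 batch label for all 6. Which of the study's siRNAs against FBXL6 these samples received is not stated in the sources used here. The suffixes 1 to 3 of the labels were taken as replicate numbers, but the study also numbers its 2 siRNAs against FBXL6 as 1 and 2. Replicates of 1 siRNA and samples of different siRNAs cannot be told apart from the labels, and in the latter case the spread within the group would include the difference between siRNAs. Nothing in the labels says that the samples came from separate cultures, so p-values measure the spread between these samples, which may be technical. The libraries labelled siNC held 58646515, 60967902 and 56814946 counts and those labelled siFBXL6 held 60968158, 60898556 and 60754015.

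FBXL6, the target of the siRNA, was at 6.19, 6.70 and 6.93 CPM (counts per 1000000 counts of the library, with library sizes normalized by TMM) in the libraries labelled siNC and at 6.58, 5.70 and 5.81 CPM in those labelled siFBXL6. The groups overlapped, with a log2 fold change of -0.13 ± 0.088 (SE; adjusted p = 0.247 in edgeR's quasi-likelihood test). Of the exon bases of FBXL6, 31.7% lie on exons of SLC52A2 on the opposite strand, and although the library kit was a stranded one, the strand setting of the counting is not given in the sources used here. The study reports knockdown of FBXL6 by its siRNAs in T24 cells, by qRT-PCR and by Western blot. It does not say whether the sequenced samples were among those checked. As the target did not set the groups apart in these counts, the libraries are named by their labels. Every direction given here is that of the libraries labelled siFBXL6 against those labelled siNC. The reference gene ACTB, which codes for a cytoskeletal actin, was at 1168 ± 24.5 CPM (SD, n = 3) and 1168 ± 25.8 CPM (SD, n = 3).

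The cell type label was set against marker genes. Keratins and other epithelial genes were abundant, with KRT7 at 1038 ± 21.1 CPM, KRT5 at 437 ± 6.77 CPM and EPCAM at 274 ± 10.1 CPM (SD, n = 3) in the libraries labelled siNC, while UPK3A, a marker of the terminally differentiated urothelium, had between 0 and 3 counts in each library. T24 is known as a line of mesenchymal character, rich in vimentin and poor in E-cadherin. In the libraries labelled siNC the vimentin gene VIM was at 15.6 ± 0.513 CPM and the E-cadherin gene CDH1, looked up after the marker values were seen, was at 118 ± 2.71 CPM (SD, n = 3). CDH2, the gene for N-cadherin, a mesenchymal marker, was at 138 ± 1.83 CPM (SD, n = 3). VIM and CDH1 thus went against that description and CDH2 did not. Besides KRT5 and EPCAM, given above, the epithelial list held TP63, which was at 134 ± 2.00 CPM (SD, n = 3) in the libraries labelled siNC. In the libraries labelled siFBXL6 VIM was at 25.4 ± 0.528 CPM, CDH1 at 132 ± 2.79 CPM and CDH2 at 91.7 ± 1.21 CPM (SD, n = 3), with log2 fold changes of 0.70 ± 0.051, 0.16 ± 0.031 and -0.59 ± 0.031 (SE), so the mesenchymal markers VIM and CDH2 differed between the groups in opposite directions. The study's methods report profiling of short tandem repeats for its lines, and the identity of the line was not tested from these counts.

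The droplet coats were abundant members of the group. PLIN2, which coats the droplets of most cells outside fat tissue (chr9:19108375-19149290, GRCh38, minus strand), was at 108, 106 and 110 CPM in the libraries labelled siNC and at 159, 160 and 158 CPM in those labelled siFBXL6, a log2 fold change of 0.56 ± 0.030 (SE). All 3 libraries labelled siFBXL6 were above all 3 labelled siNC, by far more than the spread within either group. PLIN3, a coat protein that moves from the cytosol onto growing droplets (chr19:4838341-4867768, minus strand), was at 42.6, 41.5 and 42.7 CPM against 48.2, 46.4 and 45.2 CPM, a log2 fold change of 0.14 ± 0.038 (SE). Its groups did not overlap either, but the gap between the nearest samples was smaller than the range of the libraries labelled siFBXL6. Per length of exon, PLIN2 stood at 1.41 ± 0.0152 times the level of PLIN3 in the libraries labelled siNC and at 1.89 ± 0.0553 times in those labelled siFBXL6 (SD, n = 3). Of the exon bases of PLIN3, 17.8% are shared with CTC-518P12.6 on the opposite strand, a gene with between 94 and 148 counts per library.

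Among the 5 perilipins, PLIN2 made up 58.1% ± 0.239 of the summed CPM per kilobase of exon in the libraries labelled siNC and 65.2% ± 0.649 in those labelled siFBXL6 (SD, n = 3). PLIN3 made up 41.1% ± 0.275 and 34.5% ± 0.673. The perilipins of fat and muscle cells had low counts. PLIN1, the coat of the adipocyte droplet, had between 2 and 21 counts per library, and PLIN4, with between 21 and 58 counts, was at 0.889 ± 0.104 CPM and 0.519 ± 0.148 CPM (SD, n = 3).

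G0S2, the inhibitor of ATGL, differed most among the members with high counts. The gene (chr1:209675420-209676388, plus strand) had 7095, 7330 and 6879 counts in the libraries labelled siNC against 23408, 22422 and 22154 counts in those labelled siFBXL6. This was 121, 119 and 120 CPM against 387, 371 and 368 CPM, a log2 fold change of 1.65 ± 0.031 (SE), or 3.13-fold. The libraries of each group lay close together and the groups were far apart. None of the exon bases of G0S2 is shared with another gene of the table.

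ATGL itself showed no such difference. PNPLA2 (chr11:818902-825573, plus strand) was at 12.7, 14.7 and 13.9 CPM in the libraries labelled siNC and at 14.5, 14.8 and 14.1 CPM in those labelled siFBXL6, a log2 fold change of 0.07 ± 0.062 (SE), and the groups overlapped. HILPDA, the hypoxia-inducible inhibitor of ATGL (chr7:128455849-128458418, plus strand), was at 7.73, 7.32 and 7.75 CPM against 8.04, 8.13 and 7.77 CPM, a log2 fold change of 0.07 ± 0.076 (SE). Its groups were apart only by the narrow step from 7.75 to 7.77 CPM, and the gene was not called at an adjusted p under 0.05. Of its exon bases, 13.2% are shared with genes on the same strand, and of those of PNPLA2, 10.4% with a gene on the opposite strand, so a part of their reads may have been counted elsewhere or left out.

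The balance between the lipase and its inhibitor was read per length. The level of G0S2 in CPM per kilobase was 38.8 ± 3.40 times that of PNPLA2 in the libraries labelled siNC and 115 ± 3.46 times in those labelled siFBXL6 (SD, n = 3). In the libraries labelled siFBXL6 the ratio ran from 112 to 118, and the highest ratio in a library labelled siNC was 42.4. The same ratio for HILPDA was 1.03 ± 0.105 and 1.02 ± 0.00472, with overlapping groups. ABHD5, the activator of ATGL, stood at 0.347 ± 0.0548 and 0.409 ± 0.054 times the level of PNPLA2, also with overlapping groups. These are ratios of transcripts, and the proteins were not measured in this experiment.

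ANGPTL4 codes for a secreted inhibitor of lipoprotein lipase and is a classical PPAR target. The gene (chr19:8363289-8374373, plus strand) had 51, 42 and 48 counts in the libraries labelled siNC against 186, 186 and 192 counts in those labelled siFBXL6. This was 0.872, 0.680 and 0.836 CPM against 3.08, 3.08 and 3.19 CPM, a log2 fold change of 1.97 ± 0.162 (SE), or 3.91-fold. ANGPTL4 thus had the highest log2 fold change among the 10 genes and the largest standard error, and per length it had the lowest level in the libraries labelled siNC. All 3 libraries labelled siFBXL6 were above all 3 labelled siNC. LPL codes for the lipoprotein lipase that ANGPTL4 inhibits. The transcript of LPL fell from 59.5, 58.8 and 61.1 CPM to 43.2, 45.6 and 44.0 CPM, a log2 fold change of -0.43 ± 0.036 (SE; adjusted p = 8.09e-12 in edgeR's quasi-likelihood test).

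PPARD codes for PPAR delta, a receptor found in most tissues. It (chr6:35342558-35428191, plus strand) was at 26.5, 26.9 and 27.2 CPM in the libraries labelled siNC and at 31.7, 30.4 and 31.6 CPM in those labelled siFBXL6, a log2 fold change of 0.22 ± 0.044 (SE). The groups did not overlap. FABP5, which carries fatty acids and retinoic acid to PPAR delta (chr8:81280363-81284777, plus strand), was at 415, 418 and 437 CPM against 311, 310 and 316 CPM, a log2 fold change of -0.44 ± 0.029 (SE). It was the one member called lower, with all 3 libraries labelled siFBXL6 below all 3 labelled siNC. The receptor and its carrier were thus on opposite sides of 0.

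FABP5 has exon bases in common with another entry of the table. An entry for a non-coding gene on the opposite strand covers 4.53% of its exon bases and had 15766, 16678 and 16112 counts in the libraries labelled siNC and 12182, 12097 and 12370 in those labelled siFBXL6, a log2 fold change of -0.43 ± 0.030 (SE) that lay close to that of FABP5. Without a stated strand setting for the counting, it is not known how reads on the shared bases were assigned. The table also holds 13 pseudogenes named after FABP5, whose summed counts came to at most 5.07% of the count of FABP5 in any library. How many reads counted for FABP5 came from the opposite strand or from pseudogenes was not tested.

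CPT1A, which loads long fatty acids onto carnitine for entry into the mitochondrion (chr11:68754620-68844410, minus strand), was at 5.59, 5.31 and 5.02 CPM in the libraries labelled siNC and at 5.82, 5.70 and 6.14 CPM in those labelled siFBXL6, a log2 fold change of 0.15 ± 0.090 (SE). PDK4, a kinase that switches off pyruvate dehydrogenase and so spares glucose when fat is burnt (chr7:95583499-95596491, minus strand), was at 11.6, 11.4 and 11.01 CPM against 9.36, 10.5 and 10.8 CPM, a log2 fold change of -0.15 ± 0.069 (SE). In both genes the groups were apart by less than the spread within a group, and neither gene was called, although PDK4 was called lower with upper-quartile scaling (adjusted p = 0.048 in edgeR's test) and with library size alone (0.0472). CPT1A and PDK4 therefore showed no difference of the size seen for G0S2, ANGPTL4 or PLIN2.

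**Figure D1:**
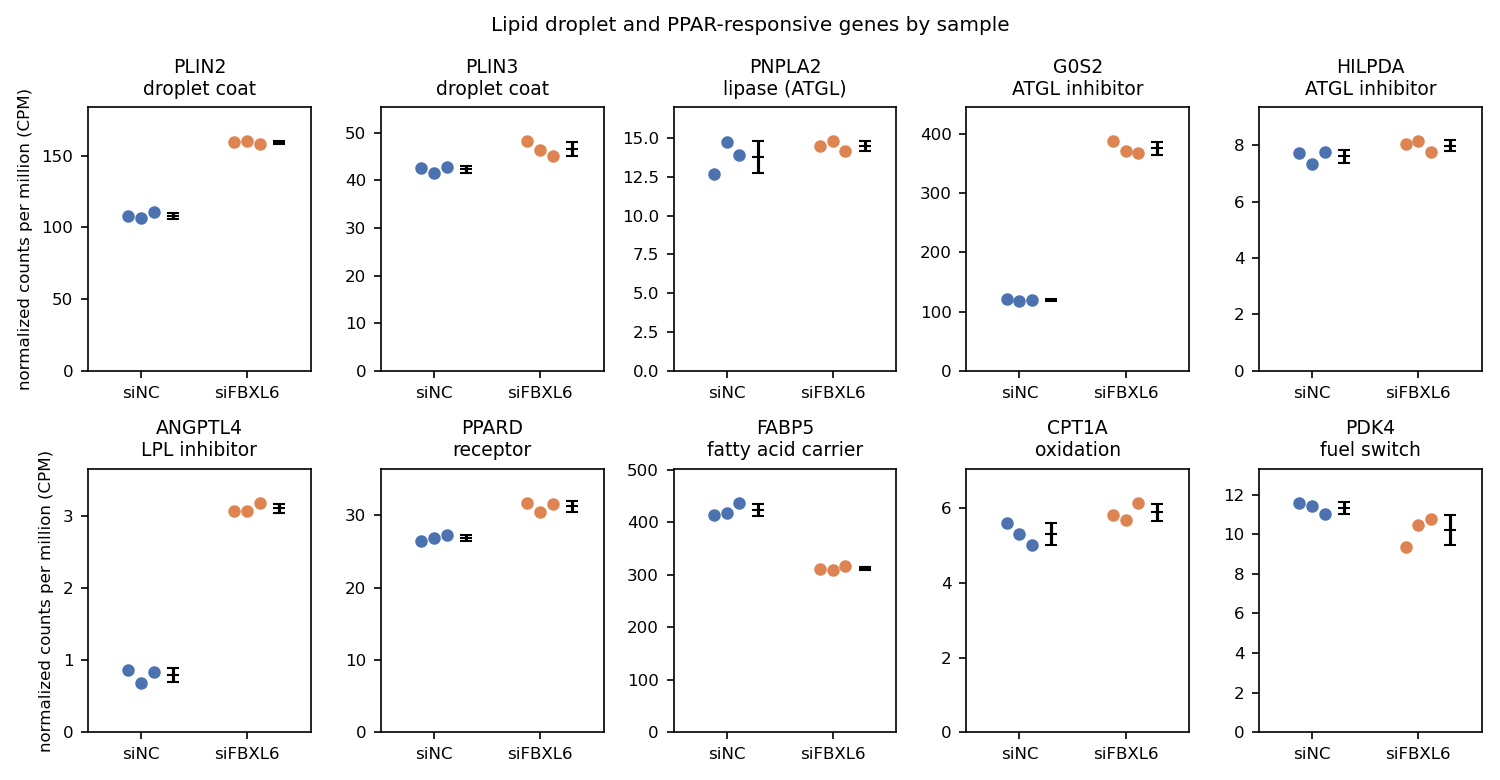
Normalized CPM of each of the 10 genes in the 3 libraries labelled siNC (blue points) and the 3 labelled siFBXL6 (orange points), each gene on its own axis from 0, with the mean and SD of each group as a black bar. G0S2 moved from about 120 to between 368 and 387 CPM and ANGPTL4 from under 1 to above 3 CPM, while PNPLA2 overlapped between the groups.

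Over the 10 members, 6 were called at an adjusted p under 0.05, where 40.2% of the 21298 genes tested were called. Of these, 5 were higher (20.5% of all genes tested) and 1 was lower (19.8%), and 2, ANGPTL4 and G0S2, differed at least 2-fold (2.92%). Groups without overlap were seen for 9 of the 10, as for 48.2% of all genes tested. Nothing is read from these counts, since the members were chosen by the values that the counts are made from. All 10 passed the filter on low counts. CPT1A, HILPDA, PNPLA2 and PDK4 were not called.

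Between genes, levels were compared per length, as CPM per kilobase of exon. The length is that of all annotated exons of a gene. Ratios, shares and rankings between genes therefore depend on the annotation and not only on the transcripts expressed. FABP5 (204 ± 5.72) and G0S2 (138 ± 1.54) led in the libraries labelled siNC, followed by PLIN2 (21.3 ± 0.425), PLIN3 (15.0 ± 0.239) and PPARD (6.02 ± 0.0862; SD, n = 3 each). HILPDA (3.67 ± 0.118) and PNPLA2 (3.59 ± 0.270) differed by less than their spread, and PDK4 (2.51 ± 0.0649), CPT1A (0.808 ± 0.0438) and ANGPTL4 (0.321 ± 0.0411) came last. In the libraries labelled siFBXL6, G0S2 (433 ± 11.97) was ahead of FABP5 (150 ± 1.62), and ANGPTL4 (1.25 ± 0.0251) was ahead of CPT1A (0.896 ± 0.0348). HILPDA (3.85 ± 0.0915) and PNPLA2 (3.77 ± 0.0826) were again within their spread.

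**Figure D2:**
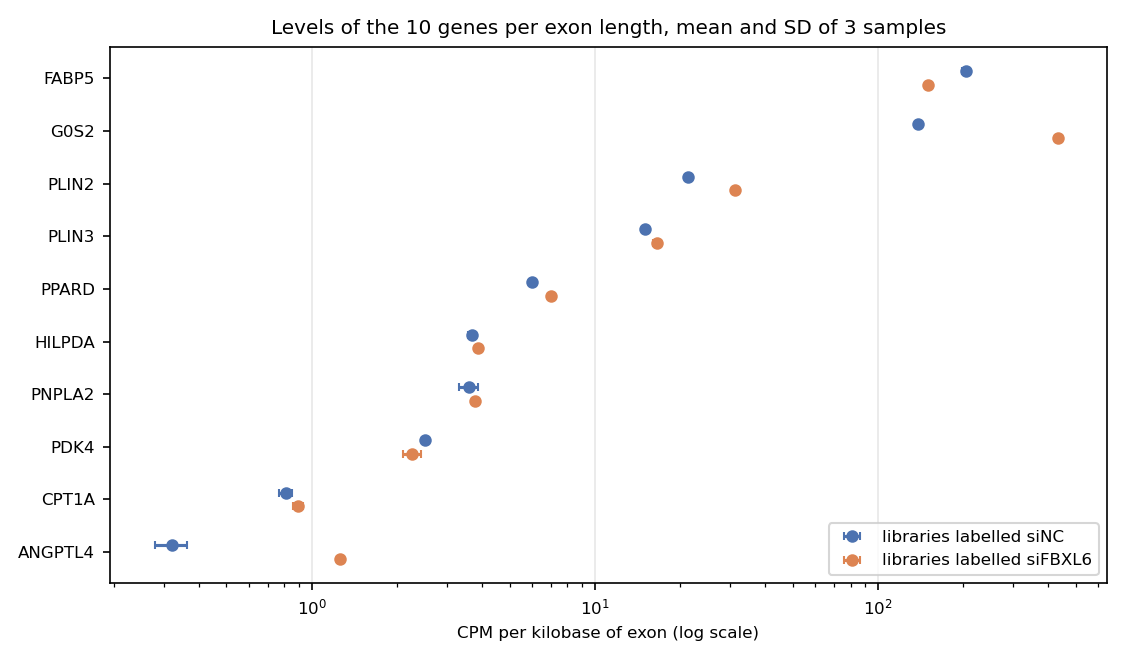
Mean level of each of the 10 genes in CPM per kilobase of exon on a log axis, with the SD of 3 libraries as a horizontal bar, for the libraries labelled siNC (blue) and siFBXL6 (orange). G0S2 moved from 138 to 433 and past FABP5, which moved from 204 to 150.

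The promoters of G0S2, ANGPTL4 and PLIN2 are shown because these 3 members had the log2 fold changes of 0.5 or more in size. They are the RefSeq promoters of GRCh38.p14, from 250 bases before to 50 bases after the RefSeq start site, written 5′ to 3′ on the strand of the gene: G0S2 on the plus strand (chr1:209675162-209675461), ANGPTL4 on the plus strand (chr19:8363905-8364204) and PLIN2 on the minus strand (chr9:19127443-19127742). The start sites of ANGPTL4 (8364155) and PLIN2 (19127492) lie inside the bounds given above for these genes in the deposited table, so the promoters are not those of the outermost start. Capitals mark matches, on either strand, to ACGTG (1 form of the core of the hypoxia response element), TATAAA or CCAAT.
G0S2: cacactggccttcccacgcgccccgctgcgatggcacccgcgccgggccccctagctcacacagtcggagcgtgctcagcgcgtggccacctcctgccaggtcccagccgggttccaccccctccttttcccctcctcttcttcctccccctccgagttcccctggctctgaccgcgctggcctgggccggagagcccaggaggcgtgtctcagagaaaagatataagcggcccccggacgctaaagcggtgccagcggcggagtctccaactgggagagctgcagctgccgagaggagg
ANGPTL4: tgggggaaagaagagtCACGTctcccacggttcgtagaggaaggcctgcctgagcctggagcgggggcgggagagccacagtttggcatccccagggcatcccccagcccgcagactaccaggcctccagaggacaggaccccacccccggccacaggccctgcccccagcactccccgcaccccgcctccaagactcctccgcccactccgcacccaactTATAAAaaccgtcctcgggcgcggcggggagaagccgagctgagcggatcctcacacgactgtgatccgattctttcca
PLIN2: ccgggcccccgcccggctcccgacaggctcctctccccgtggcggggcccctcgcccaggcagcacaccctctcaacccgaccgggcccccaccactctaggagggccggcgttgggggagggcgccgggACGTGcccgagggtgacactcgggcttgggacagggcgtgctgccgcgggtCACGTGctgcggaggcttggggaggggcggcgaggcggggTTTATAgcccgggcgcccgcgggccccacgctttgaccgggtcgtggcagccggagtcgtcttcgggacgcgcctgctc

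The table of promoters held 8 of the 10 members, all but HILPDA and FABP5. ACGTG was found in 2 of the 8 (ANGPTL4 and PLIN2) and in 21.6% of 27305 promoters, TATAAA in 2 of the 8 (the same pair) and in 11.95%, and CCAAT in 3 of the 8 (PLIN3, PDK4 and PPARD) and in 35.7%. In PLIN2, ACGTG occurred 3 times, with 2 of the matches overlapping on opposite strands from 69 and 68 bases before the start, and TATAAA lay 29 bases before the start on the opposite strand. In ANGPTL4, TATAAA lay 29 bases before the start on the strand of the gene and ACGTG 234 bases before it. The PPAR element DR1, a pair of AGGTCA repeats in the same orientation 1 base apart, was searched on both strands with at most 2 mismatches. It was present in 2.99% of the 27305 promoters and in 0 of the 8, which says only that no such letters stand in these 300 bases. The promoter of G0S2 held no DR1 and none of the motifs marked by capitals. The other form of the hypoxia element core, GCGTG, was searched after the data were seen and is not marked; it was found in 5 of the 8, G0S2 and PLIN2 among them, and in 36.3% of the 27305 promoters. GC content was 69.0% in G0S2, 66.3% in ANGPTL4 and 76.7% in PLIN2, where the median of all promoters was 58.3%.

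Position on the chromosome was looked at through the nearest tested gene on each side. LAMB3, a laminin chain gene 23.0 kb from G0S2, had a log2 fold change of 0.70 ± 0.027 (SE), and HSD11B1, 9.8 kb away on the other side, one of -1.21 ± 0.488 (SE). RAB11B, 15.6 kb from ANGPTL4, had one of 0.27 ± 0.036 (SE), and HAUS6, 5.3 kb from PLIN2, one of 0.06 ± 0.032 (SE). The nearest tested gene above FABP5 was FABP4, 193.6 kb away, with -0.86 ± 0.031 (SE). These neighbours of G0S2, ANGPTL4 and PLIN2 differed by less than the member beside them. So did KANK3 (-0.13 ± 0.317) and RP11-146N23.1 (-0.06 ± 0.204), on the other side of ANGPTL4 and PLIN2. Other members had a neighbour that differed by more than they did. Among these were CRACR2B (-0.52 ± 0.129) beside PNPLA2, TICAM1 (0.24 ± 0.074) beside PLIN3 and TESMIN (0.37 ± 0.150) beside CPT1A (log2 fold change and SE). All neighbours were looked up after the members' values were seen.

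The wider pathway was described with 10 lists of genes for lipid handling that leave out the members. They hold 141 genes, of which 121 were tested, and 23 were called higher, 34 lower and 64 not called, where 20.5% of all genes tested were called higher and 19.8% lower. Their median log2 fold change was -0.04, where that of all 21298 genes tested was -0.01. VNN1, a pantetheinase gene under PPAR control, was the only one called at least 2-fold, from 2.38, 2.56 and 2.72 CPM to 6.35, 7.35 and 6.31 CPM, a log2 fold change of 1.39 ± 0.106 (SE; adjusted p = 7.95e-13 in edgeR's quasi-likelihood test).

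Around the droplet, 4 of 12 tested genes for droplet proteins were called, 2 in each direction (median 0.02). PLIN4 was 1 of the 2 called lower, and its call was lost without siNC replicate 2 (adjusted p = 0.0589 in edgeR's test), siNC replicate 3 (0.0578) or siFBXL6 replicate 3 (0.123). LDAF1, whose product works with seipin where droplets form, rose by 0.40 ± 0.091 on the log2 scale (SE), and BSCL2, the gene for seipin itself, had a log2 fold change of -0.32 ± 0.080 (SE) and fell. Of 15 tested genes for the synthesis of triglyceride and cholesteryl ester, 5 were called higher, 1 lower and 9 were not called (median 0.10). Among those higher were GPAT3 and AGPAT1, which add the first fatty acids to glycerol phosphate (0.41 ± 0.036 and 0.44 ± 0.054), and SOAT1, which esterifies cholesterol (0.36 ± 0.034; log2 fold change and SE). Of 8 tested genes for intracellular lipases and cofactors, 2 were called, both higher (median -0.03). These were MGLL, whose product splits the last fatty acid off glycerol, with a log2 fold change of 0.68 ± 0.070, and ABHD5, with 0.32 ± 0.112 (SE). The call of ABHD5 was lost without siNC replicate 2 (adjusted p = 0.109), siFBXL6 replicate 1 (0.103) or siFBXL6 replicate 2 (0.137 in edgeR's test).

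Outside the cell's own stores, 2 of 5 tested genes of the lipoprotein lipase system were called, both lower (median -0.43). They were LPL and the endothelial lipase gene LIPG, whose log2 fold change was -0.50 ± 0.042 (SE). Genes for uptake, binding and activation of fatty acids went both ways, with 5 of 15 higher, 3 lower and 7 not called (median -0.03). FABP3 (0.64 ± 0.098), the lipoprotein receptor gene VLDLR (0.66 ± 0.104) and the acyl-CoA synthetase gene ACSL5 (0.41 ± 0.051) rose, while FABP4 (-0.86 ± 0.031), the transporter gene SLC27A2 (-0.68 ± 0.042) and DBI (-0.32 ± 0.030), which codes for the acyl-CoA binding protein, fell (log2 fold change and SE).

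FABP4, the adipocyte fatty acid binding protein and a PPAR gamma target, was the closest to FABP5 in level per length among 7 fatty acid binding protein genes. It was at 191, 197 and 202 CPM in the libraries labelled siNC and at 108, 107 and 110 CPM in those labelled siFBXL6. Per length, FABP5 made up 58.4% ± 0.285 of the summed level of these 7 genes in the libraries labelled siNC and 64.1% ± 0.269 in those labelled siFBXL6, and FABP4 made up 40.4% ± 0.296 and 33.1% ± 0.0906 (SD, n = 3). FABP5 and FABP4 were thus both lower while the share of FABP5 was higher. In bulk samples, fewer cells that express a gene and less of its RNA per cell cannot be told apart.

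In the list for mitochondrial oxidation 2 of 19 tested were called higher, 9 lower and 8 not called (median -0.14), and in the peroxisomal list 1 of 12 was called higher, 7 lower and 4 not called (median -0.19), where 20.5% of all genes tested were called higher and 19.8% lower. HADHA, a subunit of the trifunctional protein, fell from 295, 297 and 291 CPM to 255, 254 and 261 CPM, a log2 fold change of -0.20 ± 0.029 (SE), while HADHB, the other subunit, was called higher with 0.15 ± 0.043 (SE). DECR1 and ECHS1, enzymes of the same cycle, had log2 fold changes of -0.27 ± 0.037 and -0.28 ± 0.042 (SE), and CROT and HSD17B4 of the peroxisome had -0.40 ± 0.053 and -0.22 ± 0.031 (SE), while ACAA1, a thiolase gene of the peroxisome, was called higher with 0.22 ± 0.055 (SE). Among the CPT1 genes, CPT1A made up 19.8% ± 0.36 and 20.8% ± 1.62 of the summed CPM per kilobase (SD, n = 3), and CPT1B, the muscle form, made up 61.1% ± 1.16 and 66.3% ± 1.58. CPT1B was 1 of the 2 mitochondrial genes called higher, and its call was lost without siNC replicate 2 (adjusted p = 0.052 in edgeR's test), siNC replicate 3 (0.0512), siFBXL6 replicate 1 (0.0701) or siFBXL6 replicate 2 (0.0782). Of 11 tested genes for pyruvate dehydrogenase and its regulators, 2 were called, both higher (median 0.05). The call of PDHX was lost without siNC replicate 2 (adjusted p = 0.128 in edgeR's test), siFBXL6 replicate 1 (0.123) or siFBXL6 replicate 3 (0.0674), with upper-quartile scaling (0.0871), with library size alone (0.0888) and without the filter on low counts (0.0601). PDK1, the other gene called and a kinase of the same family as PDK4, rose by 0.29 ± 0.049 on the log2 scale (SE), and PDK4 made up 22.4% ± 0.768 and 21.3% ± 1.10 of the summed CPM per kilobase of the 4 kinases (SD, n = 3).

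Genes for PPAR receptors, partners and coregulators were called higher in 1 of 15 cases, lower in 7 and not called in 7 (median -0.11). RXRA, the common partner of the PPARs, fell from 91.2, 93.0 and 94.5 CPM to 69.5, 68.5 and 66.1 CPM, a log2 fold change of -0.45 ± 0.032 (SE). The coactivator genes NCOA2 (-0.67 ± 0.049) and EP300 (-0.36 ± 0.033) were also lower and NCOA3 (0.11 ± 0.035) was higher (log2 fold change and SE), a call lost without siFBXL6 replicate 2 (adjusted p = 0.0723 in edgeR's test). PPARG, the receptor of fat cells and of the urothelium, was the leading PPAR gene per length, with 70.9% ± 0.511 of the summed CPM per kilobase of the 3 receptors in the libraries labelled siNC and 66.9% ± 0.792 in those labelled siFBXL6 (SD, n = 3). PPARD made up 26.0% ± 0.343 and 29.8% ± 0.719, and PPARA the rest.

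Other PPAR-responsive genes did not move one way. Of 27 tested, 8 were called higher, 10 lower and 9 not called (median -0.04). The glycerol kinase gene GK (0.62 ± 0.079) rose along with VNN1, VLDLR and FABP3, while AQP3 (-0.96 ± 0.064), which codes for a channel for water and glycerol, fell along with FABP4 and LPL (log2 fold change and SE). The direction of ANGPTL4 and PLIN2 was therefore not that of every PPAR-responsive gene in these libraries.

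**Figure D3:**
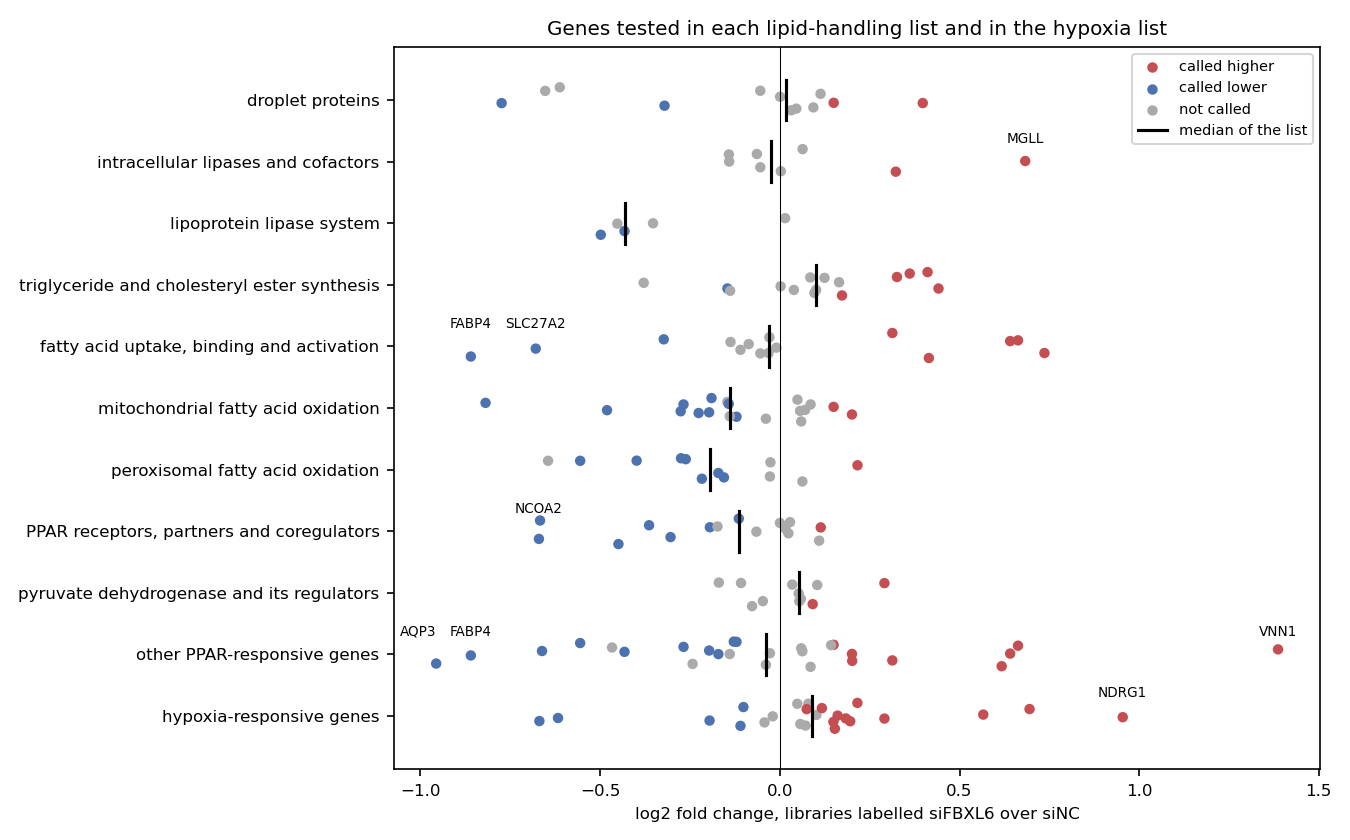
Log2 fold change, libraries labelled siFBXL6 over siNC, of every tested gene in the 10 lipid-handling lists and in a list of hypoxia-responsive genes; red points were called higher, blue lower, grey not called, a black bar marks the median of the list, and a gene in 2 lists is drawn in both. The medians of both oxidation lists lie below 0, at -0.14 and -0.19, and VNN1 at 1.39 is the highest point.

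**Figure D4:**
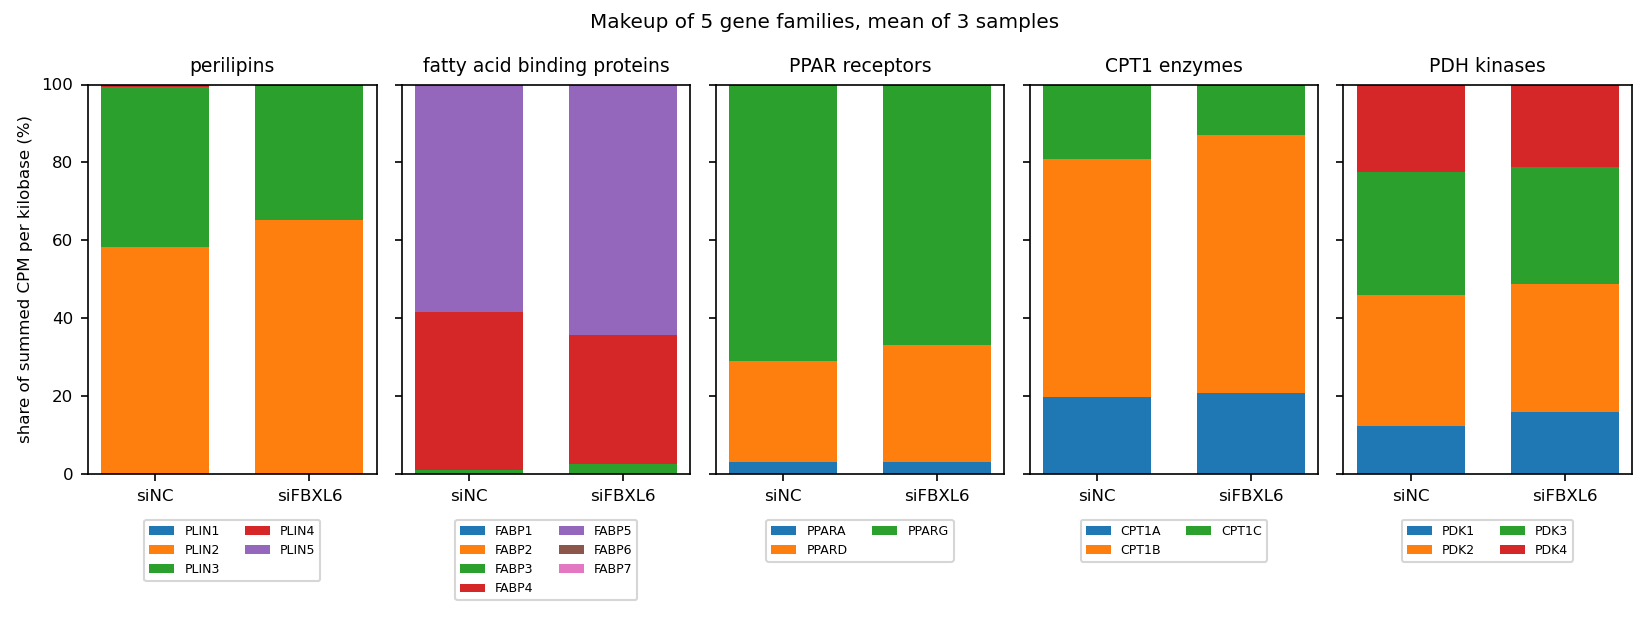
Share of each gene in the summed CPM per kilobase of exon of its family, in percent, as the mean of the 3 libraries with each label. PLIN2 moved from 58.1% to 65.2% of the perilipins, FABP5 from 58.4% to 64.1% of the fatty acid binding proteins and PPARD from 26.0% to 29.8% of the PPAR receptors.

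Because several of these genes are known from fat cells, macrophages and liver, marker lists of other cell types were summed in each library. The 10 adipocyte markers came to 262, 267 and 274 CPM in the libraries labelled siNC and to 175, 175 and 177 CPM in those labelled siFBXL6. FABP4 was the most abundant of them per length, and PPARG was also high, whereas ADIPOQ and CIDEA had 0 counts in all 6 libraries and LEP had between 0 and 2. Of the 6 adipocyte markers tested, 2 were called, both lower: FABP4, and PLIN4, whose call was lost in some fits with 1 library left out. Other markers of the list were low but present, such as LIPE with between 115 and 159 counts and CFD with between 32 and 64, and most of the sum came from FABP4 and PPARG.

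The 8 macrophage markers came to 10.1, 10.5 and 10.2 CPM against 23.8, 22.3 and 23.1 CPM. CD68, a lysosomal protein gene and the most abundant of them per length, made most of the difference, from 6.74, 6.54 and 6.81 CPM to 19.5, 17.7 and 19.0 CPM, while PTPRC had between 14 and 43 counts and CD163 between 20 and 36. Of these 8, 2 were called, both higher, CD68 and the receptor gene CSF1R, which rose from 1.61, 1.23 and 1.11 CPM to 2.27, 2.77 and 2.32 CPM, a log2 fold change of 0.90 ± 0.164 (SE). The median log2 fold change of the 8 was below 0, at -0.15. PTPRC (-0.62 ± 0.344), LYZ (-0.54 ± 0.449), CD163 (-0.37 ± 0.320) and AIF1 (-0.78 ± 0.508) were below 0 and not called. CD14 (0.06 ± 0.310) and MRC1 (0.24 ± 0.483; log2 fold change and SE) were above 0 and not called. The 7 hepatocyte markers, led by ALB, came to between 18.6 and 23.9 CPM. The 7 fibroblast markers came to 41.1, 43.0 and 40.7 CPM against 38.1, 37.9 and 36.4 CPM, and COL1A1, which led them per length, was called lower, with a log2 fold change of -0.15 ± 0.042 (SE). The 12 markers listed for epithelial and urothelial carcinoma cells, led per length by KRT19 and with VIM and CDH2 among them, came to 4044, 3912 and 4019 CPM against 3540, 3534 and 3543 CPM, with 2 of 11 tested called higher and 7 lower. The share of counts on mitochondrial genes was 5.82%, 6.28% and 6.29% in the libraries labelled siNC and 5.33%, 5.30% and 5.45% in those labelled siFBXL6. The part of the epithelial, adipocyte, macrophage, fibroblast and mitochondrial values in the differences of the members was not tested.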

How the data were processed

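RNA was measured in 6 samples. The authors deposited 1 table of read counts per gene, not normalized, with exon coordinates on GRCh38. The methods text names Trimmomatic and HISAT2, whereas the submitters' processing notes name fastp 0.23.0 and STAR, and both name featureCounts from Subread 1.5.1. The library kit was a stranded one, and the annotation release and the strand setting of the counting are not given in the sources used here.

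Genes were filtered with filterByExpr (21298 of 56303 kept), normalized with TMM and compared with the quasi-likelihood test of edgeR 4.0.16 (limma 3.58.1, R 4.3.3) on condition alone, with Benjamini-Hochberg adjustment over all genes tested. A gene was called at an adjusted p under 0.05. CPM uses TMM library sizes, and levels per length divide CPM by the summed exon length. DESeq2 1.42.0, other scalings and filters, a replicate block, other thresholds and each library left out were alternatives. The steps were tested on simulated data. Counting error and the spread of 3 samples limit the precision, and an exact permutation test of 3 against 3 could not go below 0.1.

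Named genes are the 10 members, FBXL6, ACTB, in each list up to 3 called genes with the smallest adjusted p in each direction and the most abundant gene per length, and the most abundant gene of each marker list. PPARG and the other relatives in the families, VIM, CDH1, CDH2, KRT5, KRT7, EPCAM, other markers named for their level or call, neighbours, overlapping genes and GAPDH came in after their values had been seen. The 201 listed genes were all found, 1 through a synonym (LDAF1). The members and lists were chosen with earlier results of these data known. A planned comparison of protein sequences was not run. Motifs were searched with Python 3.11.15 in 27305 RefSeq promoters.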

Additional observations from a re-analysis of the deposited data

How the results depend on the processing

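Over 63 named genes and 13 alternatives each, 797 of 819 results kept their status as called higher, called lower or not called. Of the rest, 20 lost the call and 2 gained it, and 0 calls turned direction. The sign of genes that were not called is not part of this count. Among the members the 2 gained calls were those of PDK4, called lower with upper-quartile scaling (adjusted p = 0.048 in edgeR's test) and with library size alone (0.0472), over a range of 0.0472 to 0.374. With these, 7 members were called in place of 6. The lost calls were those of ABHD5, PLIN4, CPT1B, NCOA3 and DDIT4, all with 1 library left out, and of PDHX, also with other scalings and without the filter. ANGPTL4 kept a log2 fold change between 1.86 and 2.04, G0S2 between 1.62 and 1.66, PLIN2 between 0.54 and 0.57 and FABP5 between -0.46 and -0.42. With a change of at least 2-fold required besides, 622 genes in all were called in place of 8569, and among the wider lipid-handling genes 1 higher in place of 23 and 0 lower in place of 34. For the last count, edgeR and DESeq2 both gave 0 also at an unadjusted p under 0.05, since the lowest log2 fold change was -0.96 and -0.95. Leaving out 1 library gave 7451 to 8298 genes, 19 to 26 wider genes higher and 30 to 36 lower. DESeq2 called 7692 genes, 22 wider genes higher and 32 lower. With the replicate number as a replicate block, 8408 genes were called, 23 wider genes higher and 35 lower, and none of the 63 genes gained or lost a call. Same-numbered libraries did not deviate together (r = -0.011, 0.00008 and 0.013 across genes), so no pairing by number was seen. With 3 libraries in each group, a shared effect smaller than the noise of single libraries could be missed, so how the samples were paired stays unknown. With at most 1 mismatch in DR1, again 0 of 8 promoters held it. With GCGTG counted besides ACGTG as the hypoxia element core, an alternative chosen after the data were seen, 6 of 8 held it in place of 2. The share of all 27305 promoters that held it was then 48.4% in place of 21.6%. Depth limits ANGPTL4, with 42 to 51 counts per library labelled siNC, more than the other members.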

Other observations

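Hypoxia-responsive genes, a program to which HILPDA, ANGPTL4 and PLIN2 also belong, were listed apart from the lipid lists. Of 24 tested, 12 were called higher, 5 lower and 7 not called, where 20.5% of all genes tested were called higher and 19.8% lower. The median log2 fold change was 0.09 and that of all genes tested -0.01. NDRG1, a stress-responsive gene, rose from 178, 183 and 184 CPM to 352, 350 and 356 CPM, a log2 fold change of 0.95 ± 0.029 (SE; adjusted p = 1.77e-23 in edgeR's quasi-likelihood test), the highest of the list. HK2, a hexokinase gene, and VEGFA, the gene of an angiogenic growth factor, had log2 fold changes of 0.69 ± 0.038 and 0.22 ± 0.028 (SE). By qRT-PCR in T24 and another bladder cancer line, the study reports a reduction of HK2, LDHA and GLUT1 mRNA after FBXL6 knockdown. It also reports lower levels of these proteins by Western blot. In these libraries LDHA (0.12 ± 0.029) and SLC2A1, the gene of GLUT1 (0.15 ± 0.036; log2 fold change and SE), were called higher like HK2. The directions thus differ from those of the study's qRT-PCR. FBXL6 itself was not called lower in these libraries (log2 fold change -0.13 ± 0.088, SE), so the 2 comparisons may not be alike. CA12 and CA9, which code for carbonic anhydrases at the cell surface, moved the other way, with -0.67 ± 0.081 and -0.62 ± 0.157 (SE). DDIT4, 1 of the 5 lower, lost its call without siNC replicate 2 (adjusted p = 0.053 in edgeR's test), siNC replicate 3 (0.0646) or siFBXL6 replicate 3 (0.122). HILPDA itself was not called. The list thus held calls in both directions. Oxygen was not measured, and a part of hypoxia in these differences was not tested.

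GAPDH, often taken as a reference gene and picked here after its value was seen, was at 195, 185 and 185 CPM in the libraries labelled siNC and at 661, 655 and 653 CPM in those labelled siFBXL6, a log2 fold change of 1.80 ± 0.030 (SE). This is between the values of G0S2 and ANGPTL4.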
